A study of Triticum aestivum with 42 samples.

Results

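In the winter wheat Harnesk, 179 of 61179 probe-sets (0.293%) were at least 2-fold higher at 9 than at 3 weeks in the leaf and also in the crown. The members were chosen on the deposited values themselves. In each tissue the lower of the 2 values at 9 weeks had to be at least 2 times the higher of the 2 values at 3 weeks. The leaf condition alone held for 4.12% of all probe-sets and the crown condition alone for 0.672%. Because these values chose the members, their difference between 3 and 9 weeks is given as a description and was not tested.

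The Harnesk plants sampled at 3 weeks were at 16°C (day) and 14°C (night), a 14 h day and a PAR (photosynthetically active radiation, given without a unit) of 280. Those sampled at 5 weeks were at 14°C and 10°C, a 12 h day and a PAR of 185, and those sampled at 9 weeks at 8°C and 4°C, a 9 h day and a PAR of 95. Each tissue and week had 2 arrays labelled as biological replicates, each made from RNA of 4 pooled plants. The control plants were of another winter variety, Solstice, and went through the same light and day-length while staying at 16°C and 14°C. A single control array was made per tissue and week. Harnesk and the controls therefore differed in variety as well as in temperature, and these cannot be told apart. Crown samples held the shoot tip with stem tissue and young leaf bases, so leaf-forming cells were part of them. In such bulk tissue fewer cells of a type and less RNA per cell cannot be told apart. Each value is a ratio, the signal of a probe-set on an array divided by a median for that probe-set, so values are compared between arrays and not between probe-sets.

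Winter wheats flower only after a long spell of cold, a need called vernalisation, and the same cooling brings on cold acclimation, the gain of frost hardiness. The crown holds the growing point from which leaves and later the ear are formed, and its survival decides whether the plant regrows after frost. MADS-box genes encode transcription factors, and many of them act in the change from leaf to ear formation. VRN1 is the MADS-box gene whose transcript builds up during vernalisation in winter cereals and promotes flowering.

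The members that stand in the study's lists of flowering probe-sets were those of the MADS-box genes TaVRN1 and TaAGL42. Their primers for quantitative RT-PCR, an assay not analysed here, are shown because the study lists them for these genes. Whether they read the same transcripts as the member probe-sets was not checked. The products were listed as 219 bases for VRN1 and 200 bases for AGL42.
VRN1 forward: gcgcaacaagatcagactca
VRN1 reverse: acgcttatatgggctggaag
AGL42 forward: ggctttggcgaaacaaaata
AGL42 reverse: tagcagccctggcaactaat

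TaVRN1 was low at 3 and 5 weeks in both Harnesk tissues and high at 9 weeks, with the higher level in the crown. In Harnesk crown the TaVRN1 probe-set TaAffx.143995.17.S1_s_at read 0.135 and 0.127 at 3 weeks, 0.151 and 0.162 at 5 weeks and 1.45 and 1.61 at 9 weeks. In Harnesk leaf it read 0.232 and 0.178, then 0.227 and 0.189, then 0.680 and 0.538. The values at 9 weeks lay above all earlier ones in each tissue, while those at 3 and 5 weeks overlapped in leaf and did not in crown. On the control arrays of TaVRN1 the ratio went from 0.214 at 3 weeks through 0.262 at 5 weeks to 3.35 at 9 weeks in crown, and from 0.236 through 0.283 to 0.755 in leaf. On this probe-set TaVRN1 was thus higher at 9 than at 3 weeks by 11.6-fold in Harnesk crown and 15.6-fold in control crown, and by 2.98-fold in Harnesk leaf and 3.20-fold in control leaf. The array carries 4 probe-sets of TaVRN1, and the other 3 met the rule in crown, with 2.10 to 4.54 times between the nearest values, but not in leaf, with 0.847 to 1.10 times. They did not share one control change. From 3 to 9 weeks Ta.142.1.S1_at and Ta.30607.1.A1_at were 2.90 and 2.27 log2 higher in control crown and 1.70 and 1.10 log2 higher in control leaf, while TaAffx.143995.17.A1_at stood at −0.007 log2 in control crown and −0.488 log2 in control leaf. The suffix s_at marks probes that match more than one transcript, so the copies of TaVRN1 in the related genomes of wheat were not separated.

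TaAGL42 had its highest level at 9 weeks in all 4 series of arrays. In Harnesk leaf TaAGL42 read 1.09 and 0.999 at 3 weeks, 1.18 and 0.882 at 5 weeks and 3.71 and 3.60 at 9 weeks. In Harnesk crown it read 0.258 on both arrays at 3 weeks, 0.417 and 0.434 at 5 weeks and 0.658 and 0.688 at 9 weeks, so the 3 weeks did not overlap in crown. The control ratio of TaAGL42 was 1.37, 1.78 and 2.54 in leaf and 0.641, 0.846 and 1.25 in crown, a step of 1.85-fold and 1.95-fold from 3 to 9 weeks. At 5 weeks TaAGL42 was 2.39-fold higher in Harnesk leaf than in crown (crown minus leaf −1.26 ± 0.143 log2, limma, adjusted p = 6.3e-06, n = 2 arrays each).

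The other annotated members carry locus identifiers only, 16 genes on 21 probe-sets, and their functions are not given in the sources used here. In a first group of 4 genes, LOC543251, LOC543252, LOC100037562 and LOC542792, the level was many times higher at 9 weeks in Harnesk and was lower at 9 than at 3 weeks on the control leaf arrays. LOC543251 read 0.229 and 0.325 in Harnesk leaf at 3 weeks, 1.09 and 0.909 at 5 weeks and 9.91 and 10.0 at 9 weeks. In Harnesk crown LOC543251 read 0.079 and 0.064, then 0.091 and 0.097, then 3.97 and 4.47, the largest change of any member in crown (59.3-fold). By 5 weeks LOC543251 had covered 36.0% of its log2 change in leaf and 6.82% in crown. Its control values were 0.731, 1.10 and 0.228 in leaf and 0.278, 0.315 and 0.253 in crown.

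LOC543252 read 1.38 and 1.12, 1.66 and 2.06, then 8.32 and 7.70 at 3, 5 and 9 weeks in Harnesk leaf, and 0.114 and 0.067, 0.091 and 0.120, then 2.42 and 2.03 in Harnesk crown. LOC542792 read 0.940 and 0.935, 1.32 and 1.02, then 3.75 and 3.83 in leaf, and 0.152 and 0.145, 0.259 and 0.245, then 2.59 and 2.50 in crown. LOC100037562 read 0.953 and 0.814, 1.73 and 1.61, then 5.00 and 5.09 in leaf, and 0.216 and 0.207, 0.288 and 0.292, then 3.05 and 2.96 in crown. All 3 changed more in crown than in leaf, by 25.4-fold, 17.1-fold and 14.2-fold against 6.45-fold, 4.04-fold and 5.73-fold in that order. On the control arrays LOC100037562 was lower at 9 weeks in both tissues, at 0.150 against 0.676 in leaf and 0.067 against 0.187 in crown. LOC543252 and LOC542792 were lower at 9 weeks in control leaf, at 0.375 against 0.996 and 0.338 against 0.826, and stood within 1.13-fold of their 3-week values in control crown.

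A second group, LOC543422, LOC778392 and LOC542887, had their highest control leaf value at 3 weeks and their lowest at 5 weeks on the member probe-sets. Like the first group, they were lower at 9 than at 3 weeks there. A highest control leaf value at 3 weeks was shared by LOC543245, LOC606349 and LOC100049041, which were lowest at 9 weeks. LOC543422 is read by 3 probe-sets, all of them members. On Ta.278.1.S1_at LOC543422 read 2.19 and 2.51, 7.65 and 2.63, then 48.7 and 47.3 in Harnesk leaf at 3, 5 and 9 weeks, and 0.107 and 0.133, 0.134 and 0.111, then 0.433 and 0.475 in Harnesk crown. The control leaf values of Ta.278.1.S1_at were 60.9, 5.49 and 29.5, with the lowest value at 5 weeks. LOC778392, on Ta.351.2.S1_x_at, read 0.761 and 0.751, 2.64 and 2.05, then 12.6 and 11.2 in Harnesk leaf, 0.151 and 0.157, 0.177 and 0.163, then 1.05 and 0.934 in Harnesk crown, and 7.35, 2.10 and 3.12 on the control leaf arrays. The other 2 probe-sets of LOC778392 missed the rule, with 1.00 and 1.19 times in crown. LOC542887 read 1.93 and 2.08, 2.41 and 0.737, then 5.77 and 5.11 in leaf, 0.431 and 0.477, 0.420 and 0.485, then 1.25 and 0.960 in crown, and 9.06, 0.483 and 2.52 on the control leaf arrays. Its 2 leaf arrays of 5 weeks lay on either side of the 3-week values.

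On their member probe-sets LOC542888 and LOC542799 were higher at 9 weeks on the control arrays of both tissues, as the member probe-set of TaVRN1 was. LOC542888 read 0.445 and 0.319, 1.00 and 0.325, then 3.18 and 3.63 in Harnesk leaf, and 0.311 and 0.353, 0.351 and 0.481, then 2.83 and 2.23 in Harnesk crown. Its control values were 1.06, 2.88 and 3.23 in leaf and 0.312, 0.611 and 2.71 in crown. A second probe-set of LOC542888, Ta.2787.1.S1_at, met the rule in crown at 2.04 times but not in leaf, at 0.635 times. Its control change from 3 to 9 weeks was −0.625 log2 in leaf and 0.315 log2 in crown, so the control rise in leaf was not shared. LOC542799, on Ta.13183.1.S1_x_at, read 0.986 and 0.885, 1.63 and 1.24, then 4.84 and 4.72 in Harnesk leaf and 0.124 and 0.112, 0.117 and 0.115, then 0.998 and 1.00 in Harnesk crown. The control ratio of LOC542799 from 9 to 3 weeks was 2.35-fold in leaf and 10.4-fold in crown on that probe-set, and 2.78-fold and 8.12-fold on its second one. LOC542888 and LOC543251 are neighbours on chromosome 6B of the RefSeq annotation, with 9 protein-coding genes between them. Their member probe-sets differed on the controls as given above.

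The remaining 7 genes had smaller or unequal changes in the tissues. LOC543245 was 10.1-fold higher at 9 weeks in Harnesk leaf and 3.01-fold in crown, and was 2.41-fold lower at 9 than at 3 weeks in control leaf. LOC100049041 was 3.71-fold higher in leaf and 7.05-fold in crown, with control ratios of 0.800 and 2.81. LOC543383 was 10.2-fold higher in leaf and 2.22-fold in crown, with control ratios of 0.749 and 1.09, and its second probe-set missed the rule at 1.85 times in crown. LOC606326 had both of its probe-sets among the members, 4.85-fold and 3.13-fold higher in leaf and 3.37-fold and 2.56-fold higher in crown. LOC543070 was 3.02-fold and 2.57-fold higher, and LOC606349 2.63-fold and 3.82-fold, in leaf and crown in that order. Of the 4 probe-sets of LOC542771, 2 were members, Ta.144.1.S1_at (5.66-fold in leaf and 3.17-fold in crown) and Ta.7979.1.A1_at (3.23-fold and 2.04-fold). Over the 23 members with a name, 13 were 2-fold up on neither control tissue, 6 on control crown alone and 4 on both, where the shares over all probe-sets were 81.9%, 6.89% and 4.57%.

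**Figure D1:**
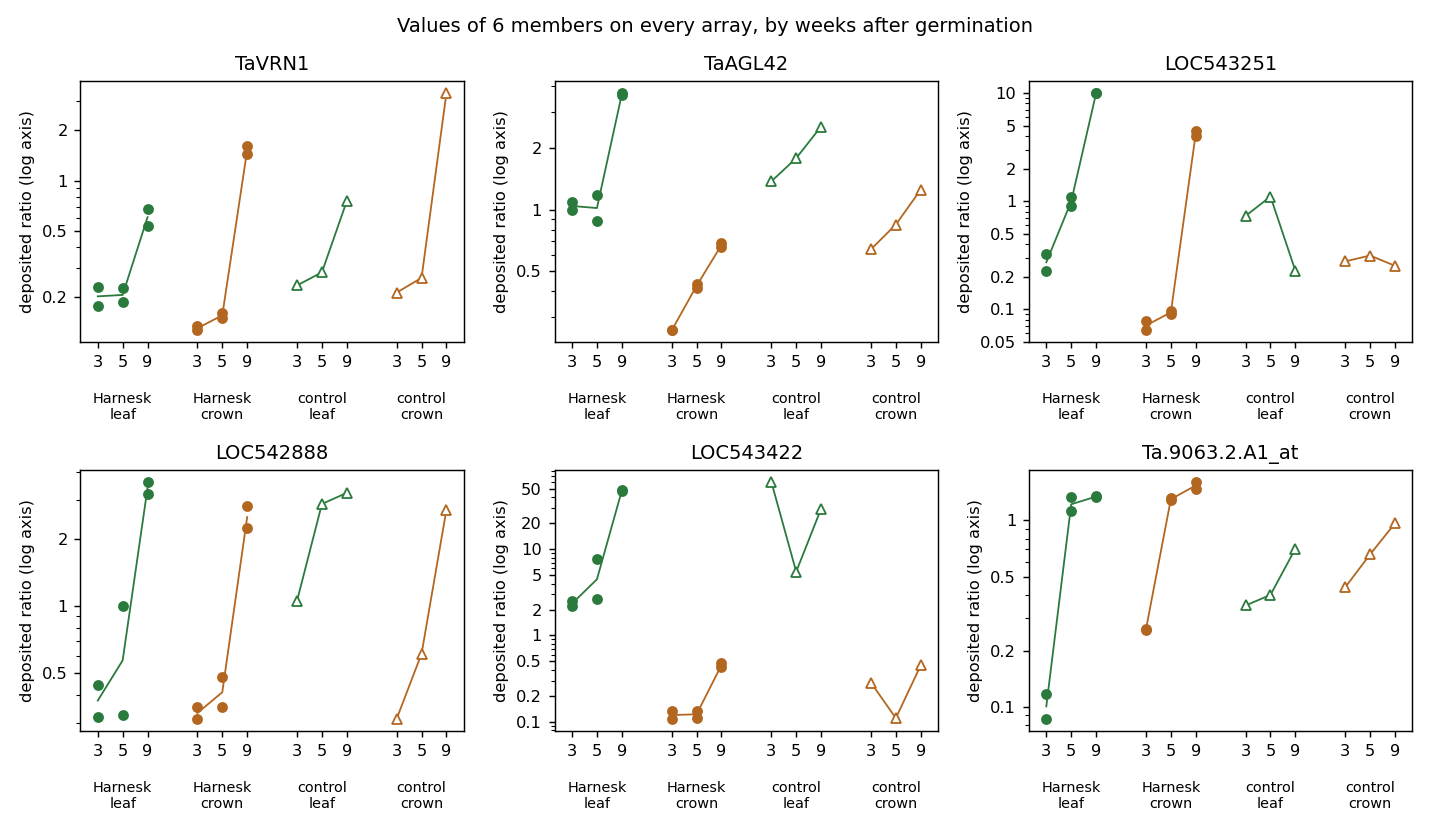
Deposited ratio (log axis) of 6 members on each of the 18 arrays at 3, 5 and 9 weeks after germination, with filled circles for Harnesk arrays, open triangles for control Solstice arrays and lines through the geometric mean (green for leaf, brown for crown). TaVRN1 and LOC542888 were higher at 9 weeks on the control arrays too, LOC543251 was not, and Ta.9063.2.A1_at was near its 9-week level at 5 weeks in Harnesk.

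Among members without a gene symbol the largest changes in both tissues were above 10-fold in 5 cases on the smaller of the 2 tissue ratios. TaAffx.110973.1.S1_at read 0.398 and 0.478 in Harnesk leaf at 3 weeks, 0.643 and 0.655 at 5 weeks and 57.2 and 50.0 at 9 weeks, and 0.687 and 0.755, 0.818 and 0.768, then 24.1 and 25.9 in crown. That was the highest of all members on that smaller ratio, 31.9 times between nearest values. Its control values were 0.523, 0.599 and 0.663 in leaf and 0.512, 0.763 and 2.03 in crown. The transcript was thus nearly flat to 5 weeks in both Harnesk tissues, at 8.26% of its leaf change and 2.70% of its crown change on the log2 scale.

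Ta.30509.1.A1_at read 0.811 and 0.833, 2.45 and 1.54, then 25.5 and 24.4 in leaf, and 0.209 and 0.227, 0.258 and 0.245, then 4.78 and 6.85 in crown. Its control values at 3 and 9 weeks were 0.807 and 0.333 in leaf and 0.201 and 0.358 in crown. TaAffx.131747.1.S1_x_at read 0.670 and 0.625, 1.56 and 0.851, then 22.4 and 25.7 in leaf and 0.330 and 0.328, 0.387 and 0.398, then 7.05 and 6.63 in crown. Ta.19303.1.S1_at read 0.167 and 0.287, 0.620 and 0.418, then 12.3 and 11.7 in leaf and 0.277 and 0.226, 0.409 and 0.410, then 5.34 and 4.28 in crown, and it had the highest control crown ratio of these 3, 10.5-fold from 3 to 9 weeks. Ta.25026.1.S1_at read 0.421 and 0.455, 1.01 and 0.993, then 6.09 and 6.08 in leaf and 0.115 and 0.144, 0.346 and 0.329, then 2.74 and 2.87 in crown, with control ratios of 1.08 and 0.881. That member climbed in 2 steps in both tissues, with 31.4% and 31.3% of the log2 change by 5 weeks. TaAffx.34169.1.S1_at was 14.0-fold higher in leaf and 11.3-fold in crown, but 5.85-fold lower at 9 than at 3 weeks in control leaf. Ta.145.1.A1_x_at was 11.7-fold and 9.42-fold higher in leaf and crown, with control ratios of 0.783 and 1.72.

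Over all 179 members the change from 3 to 9 weeks had a median of 2.50 log2 in Harnesk leaf (5.64-fold, lowest 1.15 and highest 6.95 log2) and 1.79 log2 in crown (3.46-fold, 1.03 to 5.89 log2). The median over all probe-sets was −0.105 and 0.011 log2. The leaf change was the larger one in 116 members and the crown change in 63. The largest leaf changes were those of Ta.21768.1.S1_at (123.3-fold) and TaAffx.110973.1.S1_at (122.6-fold). Ta.21768.1.S1_at read 0.048 and 0.162 in leaf at 3 weeks and 10.9 on both arrays at 9 weeks, and was 4.86-fold higher in crown. Its leaf change was 67.1-fold without the first 3-week array and 226.6-fold without the second, against 111.9-fold and 134.4-fold for TaAffx.110973.1.S1_at, so the order of the pair rests on 1 array. The second probe-set of that cluster, Ta.21768.1.S1_x_at, was 35.3-fold higher in leaf.

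**Figure D2:**
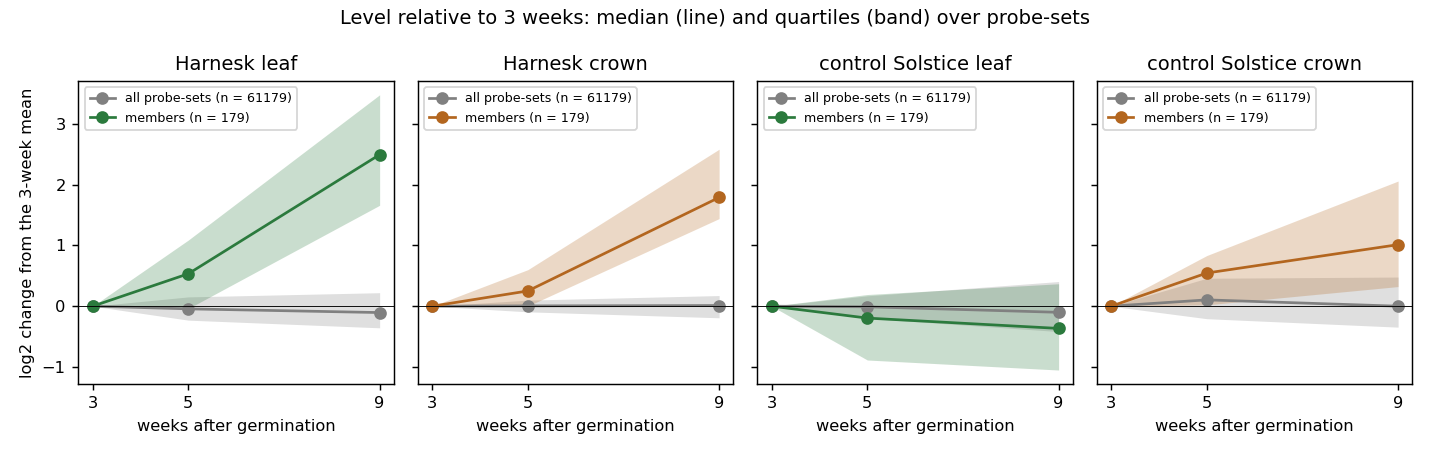
Log2 change from the 3-week mean at 3, 5 and 9 weeks after germination, as the median (line) and quartiles (band) over the 179 members (coloured) and all 61179 probe-sets (grey), in Harnesk leaf and crown (2 arrays per week) and in the control Solstice arrays (1 per week). Members reached medians of 2.50 in Harnesk leaf and 1.79 in Harnesk crown at 9 weeks, −0.366 in control leaf and 1.01 in control crown.

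Most of the difference was not yet there at 5 weeks. By the same rule, lower 5-week value at least 2 times the higher 3-week value, 34 members (19%) were up in leaf against 0.904% of all probe-sets, and 17 (9.5%) in crown against 0.0605%. Both tissues were up in 12 members (6.7%, against 0.0262% of all), leaf alone in 22 (0.878% of all), crown alone in 5 (0.0343% of all) and neither in 140 (78.2%, against 99.1%). Since the 3-week values also chose the members, these counts are a description. The median member had covered 21.1% of its log2 change by 5 weeks in leaf and 12.1% in crown. Named members up in leaf alone were LOC543251, LOC543245, LOC606349 and LOC778392.

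**Figure D3:**
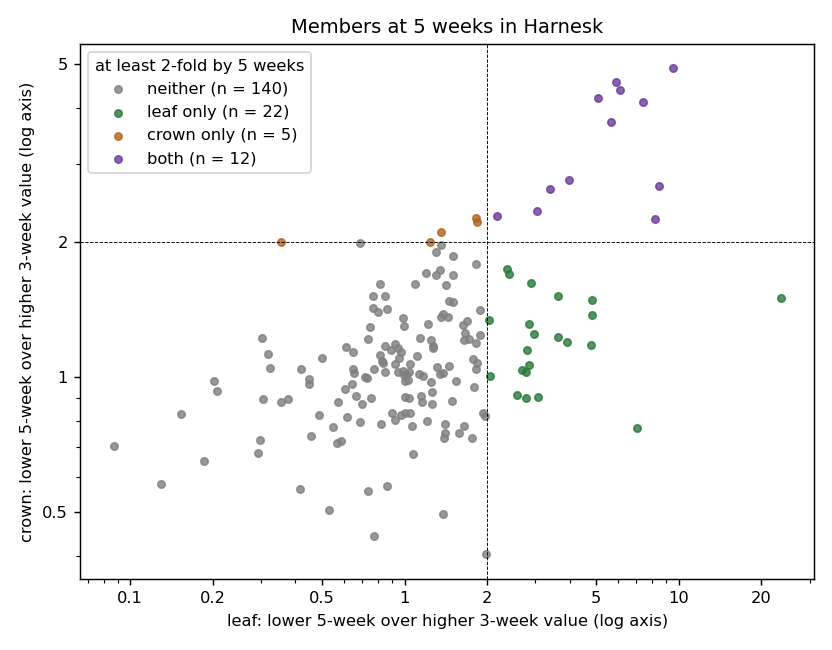
Lower 5-week over higher 3-week value of each of the 179 members in Harnesk leaf (horizontal, log axis) and crown (vertical, log axis), with dashed lines at 2. The 12 members past the line in both tissues sit at the upper right, and 140 members sit under both lines.

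Of the 12 early members, 5 belonged to the transcript cluster Ta.9063, and those are all the probe-sets of that cluster on the array. A cluster joins the sequences from which probe-sets of related transcripts were designed, so its probe-sets are not separate genes. In Harnesk leaf the 5 probe-sets of Ta.9063 read 0.086 to 0.216 at 3 weeks, 0.992 to 1.33 at 5 weeks and 1.13 to 1.35 at 9 weeks. In Harnesk crown they read 0.258 to 0.312, then 1.26 to 1.45, then 1.47 to 2.01. They had covered 91.7% to 106.1% of the leaf change and 81.3% to 90.4% of the crown change by 5 weeks, when the nights were 10°C. On the control arrays the same 5 probe-sets went from 0.350 to 0.462 at 3 weeks to 0.414 to 0.706 at 9 weeks in leaf, and from 0.205 to 0.461 to 0.562 to 0.966 in crown.

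Ta.25294.1.S1_at and Ta.27337.1.S1_at were also near their 9-week levels by 5 weeks in both tissues (93.7% to 101.0% of the log2 change). Ta.25294.1.S1_at read 0.327 and 0.331, 2.79 and 2.98, then 2.79 and 2.86 in leaf and 0.342 and 0.383, 1.03 and 1.15, then 1.11 and 1.12 in crown. On the control leaf arrays it read 0.664, 0.663 and 2.25, so the control level was unmoved at 5 weeks and higher at 9 weeks. Ta.3504.1.A1_at passed its 9-week leaf level at 5 weeks, with 0.268 and 0.304, then 2.48 and 3.4, then 1.06 and 1.26, while in crown it read 0.424 and 0.449, 1.01 and 1.21, then 1.51 on both arrays. Ta.9600.1.S1_x_at, early in leaf alone, did so more strongly, with 0.355 and 0.357, 9.49 and 8.42, then 2.47 and 2.96. Members named in these paragraphs on timing, other than LOC genes, Ta.25744.1.S1_at and Ta.25026.1.S1_at, were chosen for mention after their values were seen.

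In leaf 11 members (6.15%, against 0.775% of all probe-sets) were first lower at 5 weeks, with both 5-week values at most 0.5 times the 3-week values, before the high values of 9 weeks. No member did this in crown (0.137% of all probe-sets did). TaAffx.23404.1.S1_at was one of them, with 4.27 and 3.91, 0.965 and 0.654, then 8.63 and 9.51 in leaf. Ta.8037.1.A1_at read 2.16 and 1.42, 0.242 and 0.188, then 15.5 and 13.9. Ta.25744.1.S1_at went down in leaf, with 0.994 and 0.934, 0.364 and 0.351, then 8.46 and 8.35, and up in crown, with 0.300 and 0.309, 0.665 and 0.619, then 4.20 and 4.57. The 5-week leaf arrays were also those on which the replicates of the members lay furthest apart, by 2-fold or more in 11 members (6.15%, against 0.602% of all probe-sets), and in at most 3 members in any other Harnesk condition. Without the second 5-week leaf array the count of members up in leaf by 5 weeks was 55 in place of 34. Leaving out an array could only keep or raise this count, since the rule takes the lower 5-week value.

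The 5-week arrays were not used to choose the members, and the difference between tissues at 5 weeks was tested for each probe-set. The 3-week values did enter the rule, and the members were already lower in crown than in leaf then. At 3 weeks the member median was 0.321 and 0.332 on the crown arrays and 0.986 and 0.915 on the leaf arrays. At 5 weeks it was 0.44 and 0.457 in crown and 1.28 and 1.20 in leaf. The shares of members called at 5 weeks are therefore not independent of how the members were chosen. At that time 106 members (59.2%) were at least 2-fold higher in leaf than in crown by limma at an adjusted p below 0.05, against 10.7% of all probe-sets, and 19 (10.6%) were higher in crown, against 17.7%. Either way 125 members (69.8%) were called, against 28.4%. The median member stood 1.49 log2 lower in crown than in leaf (−1.49), and the median of all probe-sets was −0.146. In 129 members (72.1%, against 47.2% of all probe-sets) both leaf values at 5 weeks lay above both crown values. Leaf-high members thus made up a larger share of the members than of the array, and most members were leaf-high before the cold of 9 weeks.

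**Figure D4:**
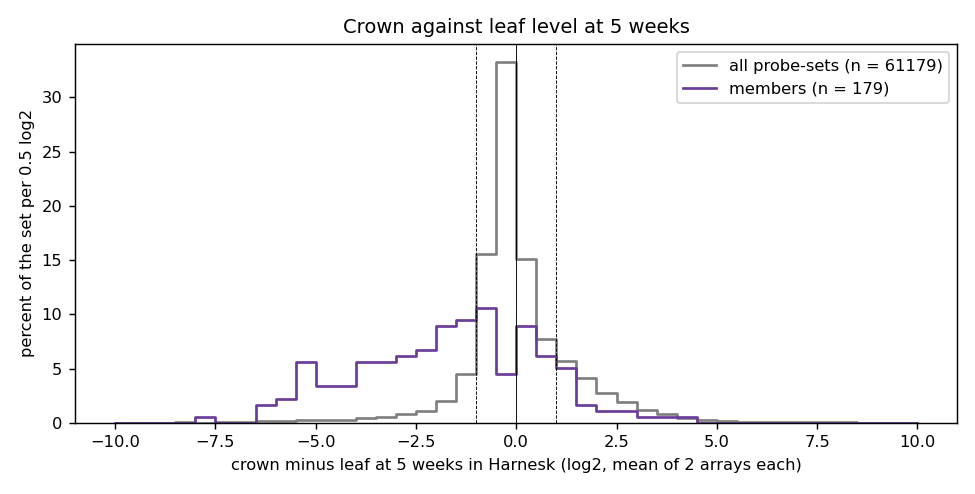
Crown minus leaf level at 5 weeks in Harnesk (log2, mean of 2 arrays each) for the 179 members and all 61179 probe-sets, as the percent of each set per 0.5 log2, with dashed lines at 2-fold. The members are spread to the left, 106 of them called higher in leaf and 19 called higher in crown.

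The largest leaf excess was that of LOC543422 on Ta.62.1.S1_x_at, at 11.3 and 5.99 in leaf against 0.033 and 0.039 in crown (crown minus leaf −7.84 ± 0.325 log2, limma, adjusted p = 3.9e-10). Ta.13784.1.S1_at followed at 3.01 and 2.99 against 0.038 and 0.043 (adjusted p = 1.1e-11, limma), and Ta.22582.1.S1_at at 3.98 and 4.69 against 0.070 and 0.061 (adjusted p = 1.5e-10, limma). Ta.13784.1.S1_at was nevertheless 33.4-fold higher in crown at 9 than at 3 weeks. In the other direction, Ta.21768.1.S1_at read 1.21 and 1.29 in crown against 0.049 and 0.068 in leaf (21.6-fold, limma, adjusted p = 5.2e-07), and TaAffx.131520.1.S1_x_at 1.20 and 1.29 against 0.117 and 0.149 (9.42-fold, limma, adjusted p = 8.4e-08). Between them in size lay Ta.21768.1.S1_x_at (13.0-fold, limma, adjusted p = 5.8e-10), which is of the same cluster as Ta.21768.1.S1_at. By 9 weeks Ta.21768.1.S1_at had the higher values in leaf, 10.9 on both arrays against 5.15 and 4.35 in crown, so its order between the tissues had turned.

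Of the 23 members with a name, 18 were called higher in leaf at 5 weeks. One probe-set of LOC542771, Ta.7979.1.A1_at, was called higher in crown (3.42-fold, limma, adjusted p = 5.8e-07), while the other member of that gene, Ta.144.1.S1_at, was 1.70-fold higher in leaf. LOC543252 had a 17.7-fold leaf excess (limma, adjusted p = 6.5e-09), LOC543251 one of 10.6-fold (adjusted p = 3.1e-09) and LOC100049041 one of 34.8-fold (adjusted p = 1.0e-11). TaVRN1 did not pass, at 0.227 and 0.189 in leaf against 0.151 and 0.162 in crown (adjusted p = 0.052, limma). TaAffx.110973.1.S1_at did not pass either, at 0.643 and 0.655 against 0.818 and 0.768 (adjusted p = 0.085).

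Markers of the 2 tissues were read beside this difference. The leaf markers were 38 probe-sets of rbcL, petC, OEE1, OEE2, PRK, FBP and CAT1, genes of photosynthesis, carbon fixation and leaf peroxisomes. Their summed ratio was 86.7 to 96.1 in Harnesk leaf and 23.7 to 23.95 in Harnesk crown at 5 weeks. Each ratio is relative to a median for its own probe-set. Such sums therefore weight probe-sets unequally and do not measure tissue make-up. Most of the 38 were rbcL probe-sets, which made up most of the crown sum, and some had like levels in both tissues. The rbcL probe-set Ta.14567.2.S1_at, for one, had means of 0.956 in leaf and 1.04 in crown at 5 weeks. In crown the sum went from 23.7 to 24.2 at 3 weeks to 25.1 to 25.9 at 9 weeks, and in leaf from 88.2 to 98.3 down to 64.3 to 66.6, with 1 of the 38 at or under a mean of 0.02 in crown and none in leaf. Single leaf markers did rise in crown from 3 to 9 weeks, 7 of the 38, mostly of genes other than rbcL, and none fell. The petC probe-set Ta.861.1.S1_at went from a mean of 0.0575 to 0.12 (limma, adjusted p = 0.000208), the OEE1 probe-set from 0.165 to 0.325 (adjusted p = 0.000221) and the FBP probe-set Ta.439.1.S1_at from 0.0445 to 0.0805 (adjusted p = 0.0101), in the same direction as the members. The summed ratio of 18 histone probe-sets, high in dividing tissue, was 346.4 to 365.5 in Harnesk crown at 3 weeks. At 9 weeks it was 289.2 to 292.6, against 3.39 to 5.10 in leaf over all weeks. A single histone probe-set, Ta.7378.17.S1_x_at, made up most of the crown sum, with means of 221.6 at 3 weeks and 189.9 at 9 weeks. The part of tissue make-up in the members' levels was not tested.

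On the control arrays the members did not share one behaviour. Among these arrays 2 stood apart, a leaf array by its rank correlation and a crown array by its spread. Rank correlation with the rest of the control leaf arrays averaged 0.101 for that of 9 weeks (0.436 and 0.445 for the other two). The middle 50% of probe-sets spanned 0.781 log2 on the 3-week crown array and 0.338 to 0.505 log2 on the Harnesk crown arrays. By rank correlation with one another the control crown arrays averaged 0.523, 0.648 and 0.495 at 3, 5 and 9 weeks, lowest at 9 weeks. With 1 array per week the control ratios carry no error and no test.

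In control leaf 14 members (7.82%) were at least 2-fold higher at 9 than at 3 weeks, against 11.2% of all probe-sets, and 49 (27.4%) were at least 2-fold lower, against 3.36%. In control crown 93 members (52.0%) were higher, against 11.5%, and 3 (1.68%) lower, against 4.86%. The median member was at −0.366 log2 in control leaf and 1.01 log2 in control crown, where all probe-sets had medians of −0.101 and 0. After quantile normalisation 60 members were higher in control crown, against 5.52% of all probe-sets, and their median was 0.546 log2. Both tissues were up in 12 members (6.7%, against 4.57%), crown alone in 81 (45.3%, against 6.89%), leaf alone in 2 (1.12%, against 6.65%) and neither in 84 (46.9%, against 81.9%). Of all members, 25 (14.0%, against 0.252% of all probe-sets) were 2-fold down in control leaf and 2-fold up in control crown.

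**Figure D5:**
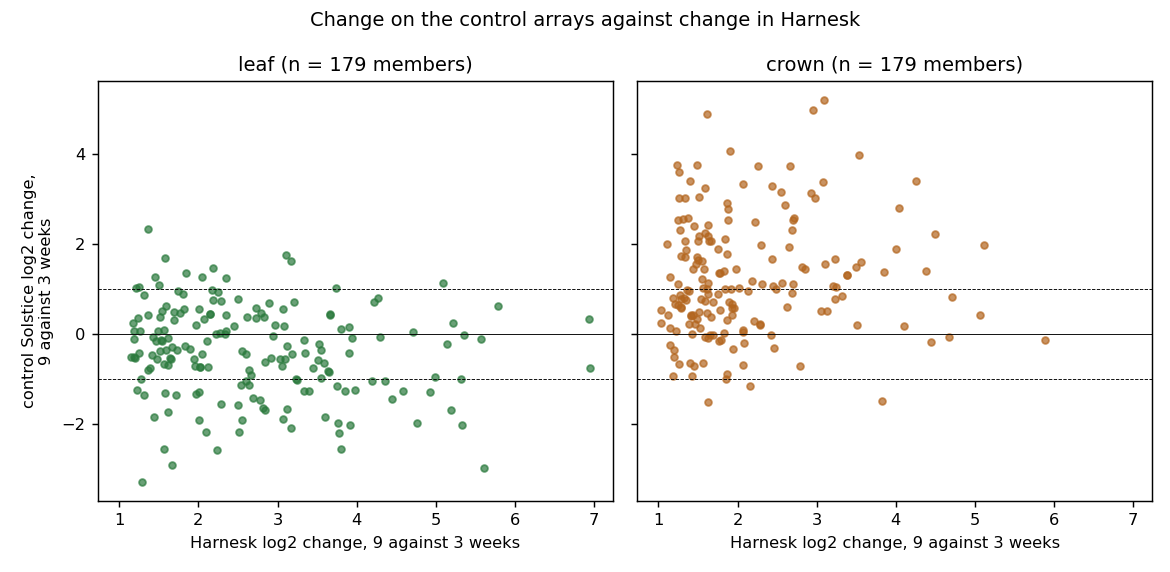
Log2 change from 3 to 9 weeks on the control Solstice arrays (vertical, 1 array per week) against that in Harnesk (horizontal, mean of 2 arrays per week) for the 179 members in leaf and crown, with dashed lines at 2-fold up and down. In crown 93 members lie above the upper dashed line and 3 under the lower one, and in leaf 14 and 49.

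Leaving out the arrays that stood apart left more members up than down in control crown and moved the counts in control leaf. In control crown without the 3-week array, 65 members (36.3%, against 3.91%) were 2-fold higher at 9 than at 5 weeks and 3 (1.68%, against 1.37%) were lower. Those counts still rest on the 9-week crown array, which had the lowest rank correlation of the control crown arrays. From 3 to 5 weeks 23 members (12.8%, against 3.36%) were up in control crown and 5 (2.79%, against 2.74%) down. This did not hold after quantile normalisation, which gave 1 up (against 0.415% of all probe-sets) and 4 down (against 1.59%). In control leaf without the 9-week array, 7 members (3.91%, against 0.333%) were 2-fold higher at 5 than at 3 weeks and 39 (21.8%, against 1.86%) lower. After quantile normalisation these numbered 16 (against 2.4% of all probe-sets) and 42 (against 3.44%). In control leaf without the 3-week array, 23 (12.8%, against 10.8%) were higher at 9 than at 5 weeks and 18 (10.1%, against 2.94%) lower. Quantile normalisation gave 22 (against 11.6% of all probe-sets) and 40 (against 9.12%). Members lower than at 3 weeks were thus more frequent than those higher in control leaf at 5 weeks as well as at 9 weeks.

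Several members read far higher on the control leaf array of 3 weeks than on that of 5 weeks. Ta.23271.1.S1_s_at, at 3.65 and 2.72, 30.3 and 25.8, then 131.4 and 122.6 in Harnesk leaf, read 50.5, 8.63 and 12.6 on the control leaf arrays. Ta.27760.1.S1_at read 0.657 and 0.692, 1.01 and 0.555, then 32.4 and 33.6 in Harnesk leaf and 38.9, 1.74 and 4.94 in control leaf. Ta.7022.1.S1_s_at read 7.54, 2.07 and 1.00 in control leaf and 2.33, 0.671 and 0.825 in control crown, with the lowest mean control change of all members (−2.21 log2). Together with LOC100037562, these last 2 were the 3 members with 2-fold lower values in control crown at 9 weeks.

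The highest control changes were those of TaAffx.128555.1.S1_at, Ta.2638.1.S1_at and TaVRN1. Ta.2638.1.S1_at read 0.969, 1.42 and 35.4 in control crown and 1.18, 1.30 and 2.52 in control leaf. In Harnesk it read 0.546 and 0.691, 0.720 and 0.800, then 5.36 and 5.14 in crown, and 0.534 and 0.481, 1.25 and 0.975, then 1.56 and 1.32 in leaf. TaAffx.128555.1.S1_at read 0.190, 0.384 and 5.91 in control crown, and 0.121 and 0.139, 0.285 and 0.277, then 1.00 on both arrays in Harnesk crown.

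The members came from 151 transcript clusters, 17 of which gave more than 1 member. The cluster Ta.13165 gave 6 members, again all of its probe-sets on the array. They read 0.451 to 0.939 in Harnesk leaf at 3 weeks, 0.590 to 1.39 at 5 weeks and 3.30 to 9.25 at 9 weeks, and 0.295 to 0.591, 0.663 to 1.29, then 2.69 to 5.75 in crown. The crown had covered 31.2% to 35.9% of its change by 5 weeks and the leaf 10.8% to 29.6%. In control crown the 6 probe-sets were 2.09-fold to 3.17-fold higher at 9 weeks, and in control leaf the ratio was 0.751 to 1.47. The 3 members of Ta.7479 read 0.152 to 0.197 in Harnesk leaf at 3 weeks and 1.92 to 2.15 at 9 weeks, with control leaf ratios of 0.510 to 0.860. The 3 members of Ta.28917 were at 0.248 to 0.309 of their 3-week level in control leaf at 9 weeks.

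Probe-sets with the suffix x_at, whose probes can bind related transcripts, made up 25.7% of the members (46) and 11.1% of the array. Identifiers that start with TaAffx made up 20.1% of the members and 48.5% of the array, and 12.3% of the members had a gene symbol against 2.08% of the array. Members of 1 cluster or with shared probes are not independent measurements of separate genes.

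Around the limit of the rule the values ran on without a gap. Just inside lay Ta.4678.3.S1_x_at, with 0.453 and 0.491 in crown at 3 weeks and 1.06 and 0.983 at 9 weeks (2.00 times), Ta.23324.1.S1_at, with 0.195 and 0.197 against 0.408 and 0.396 in crown (2.01 times), and Ta.28472.1.S1_at, with 1.29 and 1.14 against 2.59 and 3.09 in leaf (2.01 times). Just outside lay Ta.4760.1.S1_x_at, Ta.5478.1.A1_a_at and TaAffx.54099.1.S1_s_at, each at 1.99 times in crown. TaAffx.54099.1.S1_s_at was 9.14 times higher in leaf and read 0.180, 0.384 and 10.6 in control crown.

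Genes of pathways known to answer to cold or to act in flowering were read on the same arrays by limma, at an adjusted p below 0.05. Over all probe-sets 17.0% rose and 16.9% fell from 3 to 9 weeks in Harnesk leaf, and 3.57% rose and 7.43% fell in crown. Of 69 probe-sets of flowering and MADS-box genes, 24 rose and 10 fell in leaf and 6 rose and 7 fell in crown. Those that rose in crown were the 4 probe-sets of TaVRN1 and those of TaAGL10 and TaAGL42. Among the 69, 2 were members, of TaVRN1 and TaAGL42, and these had been chosen on the same values. The median change of the 69 was 0.135 log2 in leaf and 0.048 in crown, against −0.105 and 0.011 over all probe-sets. Among those that are no members, ent-kaurene synthase (Ta.8418.1.S1_at), an enzyme of gibberellin synthesis, rose in leaf by 3.00 ± 0.274 log2 (limma, adjusted p = 5.49e-06), and TFL1, a gene that delays flowering in Arabidopsis, fell by 0.818 log2 in crown (adjusted p = 0.00486). Of 5 cold acclimation probe-sets none changed in leaf and 3, all named rab, a dehydrin-type gene, rose in crown, and none was a member. Of 5 pathogenesis-related probe-sets 2 rose in leaf, and PR5, a thaumatin-like defence protein, had means of 2.49, 9.03 and 27.4 in leaf at 3, 5 and 9 weeks (change of 3.46 ± 0.206 log2 from 3 to 9 weeks, limma, adjusted p = 1.75e-07) and of 0.208, 0.135 and 0.369 in crown (0.836 ± 0.206 log2, adjusted p = 0.0213). In crown 1 of the 5, PR5, rose and 1, a Glc1 probe-set, fell.

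Of 5 fructan and sucrose probe-sets 2 rose and 1 fell in leaf and 1 rose in crown. Of 9 oxidative stress probe-sets 2 rose and 6 fell in leaf and 4 rose in crown. Of 36 photosynthesis probe-sets 9 fell in leaf and 7 rose in crown. The single heat shock probe-set, hsp16.9A, did not pass in leaf (adjusted p = 0.0781, limma) or crown (adjusted p = 0.771). Over the 7 lists together 22 probe-sets rose and 8 fell in crown, and without any one of the 3-week or 9-week crown arrays 13 to 14 rose and 1 to 3 fell. In leaf 26 fell, and 17 did so without the first 9-week array. Apart from the flowering genes these lists held no member, and neither did those of the tissue markers. All lists but that of the flowering genes were filled by gene symbol or synonym. Only 22 of the 179 members (12.3%) had a gene symbol. The other members could not enter these lists whatever gene they stand for, so their absence says little about function. Of the 38 leaf markers 11 fell in leaf and 7 rose in crown, and of the 18 histone probe-sets 1 rose and 1 fell in leaf and 4 fell in crown.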

How the data were processed

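Of 42 Affymetrix wheat arrays, the 12 of Harnesk and the 6 of control Solstice entered the analysis. Per the labels and methods, the authors normalised each chip by RMA (version not given in the sources used here) and then each gene to its median, and what they deposited is a linear ratio per probe-set and array, with 3 decimals and a lowest value of 0.01. Which arrays gave that median is not known, so control and Harnesk levels were each read against their own 3-week values, and crown was set against leaf on the premise of one median per probe-set. The number of arrays limits the precision. The 24 arrays of Paragon and vernalised Solstice were not used, because their rows do not follow the identifiers. The correlation of log2 values between neighbouring rows of one transcript (6066 pairs) exceeded that between other neighbouring rows by 0.537 to 0.678 on the 18 arrays used, and the difference was −0.1 to 0 on the others.

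The 111 array controls were left out, which left 61179 probe-sets. Of these, 1273 had 1 gene symbol in the array's annotation table. Values were put on the log2 scale and not normalised again. The comparison of crown with leaf at 5 weeks, and the change of gene lists, were fitted with limma 3.58.1 in R 4.3.3, with one mean per variety, tissue and week, an untrended prior variance and p-values adjusted by Benjamini-Hochberg across the 61179 probe-sets. A tissue difference counted at an adjusted p below 0.05 and at least 2-fold. P-values measure the spread between pools of 4 plants. Errors are the standard errors of the fit. On simulated data for the comparison at 5 weeks over 61179 probe-sets, 88.1% of 2.5-fold, 95.5% of 4-fold and 100% of 8-fold differences were found, with 3 false calls. The simulation had independent normal noise and only a small set of changed probe-sets. In the data 28.4% of probe-sets were called, so these figures need not hold there. Summaries were made with Python 3.11.15 and pandas 2.3.3.

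The members and gene lists were chosen with earlier results of these data known. Single members are named if they had 1 gene symbol or a name in the study's probe-set lists, were among the 10 others with the largest smaller-tissue ratio, had 1 of the 3 highest or lowest mean control changes, lay nearest the limit of the rule (3 on each side), or were among the 3 with the largest leaf or crown excess at 5 weeks. The list of CBF and DREB factors found no probe-set by symbol. Alternatives were other fold limits, quantile normalisation, centring on array medians and leaving out the lowest 25% of probe-sets by mean log2 ratio. Further ones were a trend in the variance prior, the 12 Harnesk arrays alone, the replicate number as a block and leaving out each replicate. The mean log2 ratio is relative to a median for each probe-set, so it does not rank probe-sets by how strongly they are expressed.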

Additional observations from a re-analysis of the deposited data

Results flagged for a closer look

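Ta.25744.1.S1_at stood out because its values at 5 weeks lay at least 1.5 times under the 3-week values in every Harnesk leaf array (change of −1.43 log2) and at least 1.5 times above them in every crown array (1.08 log2). The difference between the tissues was not tested, since the 3-week values chose the member.

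The members that were at least 2-fold lower at 9 than at 3 weeks in control leaf and at least 2-fold higher in control crown, 25 in all, stood out for opposite directions in the tissues. With 1 array per tissue and week this difference was not tested. LOC543422 on Ta.278.1.S1_x_at is an example, with 56.9, 4.22 and 27.4 in control leaf and 0.229, 0.086 and 0.462 in control crown.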

How the results depend on the processing

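With fold limits of 1.5 and 3 the members numbered 411 and 70 in place of 179, and 78 when the lowest 25% of probe-sets by mean log2 ratio was left out. Without 1 array they numbered 182 to 204. The rule takes the lowest and highest values, so leaving out an array could only keep or raise the count. Quantile normalisation gave 215, of which 153 were members, and a limma rule in both tissues gave 234, of which 178 were. The limma rule used the same 3-week and 9-week values that chose the members. Its overlap with them is therefore no independent check and no test of their change. At 5 weeks, members higher in leaf numbered 44 of 106 and higher in crown 5 of 19 without the lowest 25%, and 11 were higher in crown after quantile normalisation. Members up by 5 weeks numbered 58 and 20 in leaf at limits of 1.5 and 3, and 36 and 6 in crown. Without 1 array they numbered 37 to 55 in leaf and 17 to 25 in crown, counts that again could not fall. In control leaf 28 and 4 were up at those limits and 23 from 5 to 9 weeks, and in control crown 60 after quantile normalisation. Without 1 array, list probe-sets that fell in leaf numbered 17 to 26 (26 with all), those that rose in crown 13 to 14 (22), and those that fell in crown 1 to 3 (8). Causes were not tested. Quantile normalisation turned the balance of members 2-fold up and down in control crown from 3 to 5 weeks (23 and 5 to 1 and 4) and in control leaf from 5 to 9 weeks (23 and 18 to 22 and 40). No other result listed here reversed.

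Same-numbered replicates did not deviate together, with correlations of −0.0942 to 0.0707 over 15 pairs of conditions and 0 above 0.1. The replicate block (12 Harnesk arrays) gave 106 and 19 members higher in leaf and in crown, 29 list probe-sets that rose and 26 that fell in leaf, and 21 and 7 in crown. The following alternatives, and the leaf changes without 1 array of 3 weeks given above, were chosen after seeing the data. Without the x_at and s_at members, leaving 122, the shares up in control leaf and crown were 8.20% and 52.5%, and with 1 probe-set for each of 151 clusters 7.95% and 51.7%.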
